A study of Homo sapiens with 12 samples.

Results

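CKS1B and the SCF-SKP2 ubiquitin ligase were followed through 9 genes, chosen by name: CKS1B, CKS2, SKP1, SKP2, CUL1, RBX1, CDKN1B, CDKN1C and FBXW7. They are 9 of the 36337 gene or transcript names on the arrays, which carried 12 probes for them out of 50599 probes in all, with 2 probes each for CKS1B, SKP1 and CDKN1B and 1 for each of the others. All 12 probes were well above background on all 12 arrays, and their spots included 0 saturated ones. Total RNA came from 3 human lung adenocarcinoma cell lines, A549, PC14 and PC14CDDP, the last being the cisplatin-resistant line whose parent is PC14. Each line was transiently transfected with premiR-197 (a synthetic miR-197 mimic), with AllStar-NC (its negative control), with LNA-miR-197 (a locked nucleic acid inhibitor) or with LNA-miR-NC (the control of the inhibitor). Every oligonucleotide was used at 25 nM with DharmaFECT 1 in RPMI medium with serum, and the time between transfection and lysis is not given in the sources used here. Each combination of line and transfection was measured on 1 array, so the 3 lines stand in for replicates of a transfection, and the 4 transfections for replicates of a line. The p-values for lines therefore rest on the spread between cultures within lines, pooled over all 3 lines after the shared effect of transfection is taken out. They do not measure a spread between independent lines, and PC14 and PC14CDDP are 1 pair of lines.

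SCF ligases attach ubiquitin to proteins and so mark them for the proteasome. CUL1 is the scaffold, RBX1 recruits the ubiquitin-conjugating enzyme at one end, and SKP1 at the other end holds an exchangeable F-box protein that picks the substrate. With SKP2 as the F-box protein and CKS1, the product of CKS1B, as its accessory factor, the ligase degrades the cyclin-dependent kinase inhibitors p27 (CDKN1B) and p57 (CDKN1C) and lets cells pass from G1 into S phase. FBXW7 is another F-box protein of the same scaffold, with cyclin E, MYC, JUN and NOTCH1 among its substrates. CKS2 is the paralog of CKS1B, and both bind cyclin-dependent kinases. These are controls on protein, whereas the arrays measured mRNA. CKS1B is among the genes that the study took forward as miR-197 targets after looking at these same arrays, so its direction after transfection is a description and not independent evidence.

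The mature miRNA of the mimic is printed first, from RefSeq (GRCh38.p14, chr1:109598940-109598961, plus strand), with the seed, bases 2 to 8, in capitals, because this is the part that pairs with a target mRNA. Below it stands the 60-base CKS1B probe 2, as the files give it (hg19, chr1:154947230-154950471, plus strand). It spans 3242 bases of the genome, so it crosses at least 1 intron, and both probes of CKS1B were read side by side for this reason.

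miR-197-3p: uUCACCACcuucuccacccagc
CKS1B probe 2: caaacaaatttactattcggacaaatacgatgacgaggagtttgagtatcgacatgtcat

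CKS1B probe 1 lies farther along the gene, at chr1:154951527-154951586 of hg19, within 1 stretch of genome. RefSeq lists 7 CKS1B pseudogenes, and how far such copies add to either probe was not tested. The reverse complement of the seed, GTGGTGA, is found in 0 of the 12 member probes and in 258 of the 50599 probes (0.510%), which says nothing of the rest of each mRNA. The other probes lie at chr9:91931523-91931582 (CKS2), chr5:36170472-36170531 (SKP2), chr7:148495708-148495767 (CUL1) and chr22:41368609-41368668 (RBX1). On hg19, FBXW7 was read at chr4:153242458-153242517 and CDKN1C at chr11:2904903-2904962, both on the minus strand. Probe 1 of CDKN1B, spotted 10 times on each array, lies at chr12:12874940-12874999, and probe 2 at chr12:12871119-12871178. On the minus strand, SKP1 probe 1 lies at chr5:133493155-133493214, and probe 2 spans chr5:133502919-133509660. The files do not state exons or untranslated regions for these positions, and no transcript annotation of hg19 was used here.

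Levels below are log2 values set against each array's own 75th percentile, which lay between 405.659 and 476.69 signal units. A level of 1 is thus 1 doubling above that percentile. Since probes bind with unequal strength, levels are compared between arrays for the same probe and never between genes. On the arrays, 55.8% to 63.0% of probes exceeded background clearly. A549 was hybridised on a slide of its own and PC14 and PC14CDDP shared another, so slide and A549 cannot be told apart. On the shared slide PC14 lay in row 1 and PC14CDDP in row 2, so row cannot be told apart from the difference between these lines. A given transfection always occupied the same column of a slide, so column and transfection cannot be told apart either. Of the epithelial markers, KRT7, KRT8, KRT18 and KRT19 were well above background on all 12 arrays. EPCAM was so on 4 A549, 3 PC14 and 0 PC14CDDP arrays, and CDH1 on 4, 2 and 0. The mean levels of EPCAM and CDH1 were -4.70 and -4.99 in PC14, against 0.25 and 1.06 in A549. Of the 7 markers of cells that such cultures should lack, COL1A2 was well above background on 0 of 12 arrays and PTPRC, CD14 and COL1A1 on 12. PECAM1, an endothelial marker, was well above background on all 4 PC14 arrays, on 1 A549 array and on 0 PC14CDDP arrays, and its part in the line differences was not tested.

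The largest share of the variation in all 12 member probes lay between the lines. Such shares were not computed for the other probes, so this is not shown to be particular to the members. For CKS1B probe 1, the line accounted for 87.4% of the sum of squares over the 12 arrays, the transfection for 9.96% and the rest for 2.63%. CUL1 had the highest share by line, at 90.8%, and SKP1 probe 1 the lowest, at 58.5%. The share by transfection was highest for SKP1 probe 1 (31.2%) and FBXW7 (31.1%) and lowest for CKS2 (2.25%). Because the array measures bulk RNA, more RNA per cell and more cells in the part of the cycle that uses a gene cannot be told apart.

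CKS1B was highest in PC14CDDP, lower in A549 and lowest in PC14, on both of its probes. With the transfections in the order premiR-197, AllStar-NC, LNA-miR-197 and LNA-miR-NC, the level of CKS1B probe 1 was 6.36, 6.61, 6.77 and 6.66 in PC14. In PC14CDDP it was 7.21, 7.61, 7.65 and 7.45, and in A549 it was 6.87, 7.07, 6.97 and 6.95. The 3 lines did not overlap on this probe, since the lowest PC14CDDP array (7.21) stood above the highest A549 array (7.07), and the lowest A549 array (6.87) above the highest PC14 array (6.77). On probe 2, which crosses an intron, levels were 3.49, 3.82, 3.98 and 3.73 in PC14 and 4.46, 4.89, 4.86 and 4.67 in PC14CDDP. A549 lay at 4.27, 4.47, 4.34 and 4.25, above every PC14 array, with its highest array just over the lowest of PC14CDDP. Over the 12 arrays the log2 levels of both probes were correlated at r = 0.976, and at r = 0.955 after the mean of each line was taken away.

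In PC14CDDP, CKS1B mRNA was 1.84-fold that of PC14 on probe 1 (log2 difference 0.88, SE 0.09, limma adjusted p = 8.16e-05) and 1.95-fold on probe 2 (log2 difference 0.96, SE 0.09, limma adjusted p = 6.3e-05). The difference was positive in all 4 transfections, from 0.79 to 1.00 on probe 1 and from 0.88 to 1.07 on probe 2. CKS2 differed to a like extent, by 1.88-fold (log2 difference 0.91, SE 0.17, limma adjusted p = 0.00277). Its levels were 5.82, 5.97, 6.27 and 6.33 in PC14 and 6.75, 7.17, 7.16 and 6.93 in PC14CDDP, with no overlap. The paralogs thus both stood higher in the cisplatin-resistant line, with CKS2 varying more between transfections (differences from 0.60 to 1.19).

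CUL1, the scaffold, was the other member that separated PC14CDDP from PC14 without overlap. For this and the other pairs of lines, the share of all probes that separate without overlap was not counted. Its levels were 1.55, 1.67, 1.80 and 1.69 in PC14 against 2.37, 2.22, 2.47 and 2.38 in PC14CDDP, which is 1.60-fold higher (log2 difference 0.68, SE 0.08, limma adjusted p = 0.000204). FBXW7 was 1.32-fold higher in PC14CDDP (log2 difference 0.41, SE 0.09, limma adjusted p = 0.00534), a call that the methods' t-test did not make (adjusted p = 0.0821). The FBXW7 arrays of the lines overlapped, with 0.54, 0.68, 0.88 and 0.52 in PC14 and 1.15, 1.07, 1.30 and 0.73 in PC14CDDP, although PC14CDDP was higher in each of the 4 transfections. RBX1, the RING subunit, went the other way and was 1.41-fold lower in PC14CDDP (log2 difference -0.49, SE 0.12, limma adjusted p = 0.00773). It read 5.94, 5.78, 6.04 and 6.12 in PC14 and 5.68, 5.15, 5.79 and 5.30 in PC14CDDP, where the highest PC14CDDP array just reached the lowest of PC14. The RBX1 call was lost without the AllStar-NC arrays or without the LNA-miR-NC arrays, where the log2 difference was as small as -0.38, and by the methods' t-test (adjusted p = 0.0727).

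The remaining members were not called between PC14CDDP and PC14. SKP2, the F-box protein that works with CKS1, read 1.19, 1.45, 1.23 and 1.27 in PC14 and 1.02, 1.31, 1.33 and 1.08 in PC14CDDP (log2 difference -0.10, SE 0.14, limma adjusted p = 0.580). SKP1, the adaptor, differed by -0.12 on probe 1 and -0.11 on probe 2, both with SEs under 0.10. CDKN1B, which encodes p27, differed by 0.06 on probe 1 and by 0.12 on probe 2 (SE 0.13 and 0.14). CDKN1C, which encodes p57, was lower in PC14CDDP in all 4 transfections, by 0.20 to 0.89 on the log2 scale, and missed the threshold (log2 difference -0.60, SE 0.26, limma adjusted p = 0.0953). It was called when background was corrected by normexp (adjusted p = 0.0328) and when limma was fitted to the arrays of both lines alone (adjusted p = 0.0190). In all, 5 of the 12 member probes were called higher in PC14CDDP, where 26.0% of the 33712 probes tested were called higher, and 1 was called lower, where 22.8% were. The median difference of the members was 0.09 and that of all probes 0.06.

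A549 differed from PC14 in nearly every member. CKS1B was 1.29-fold higher in A549 on probe 1 (log2 difference 0.37, SE 0.09, limma adjusted p = 0.00496) and 1.49-fold higher on probe 2 (0.58, SE 0.09, limma adjusted p = 0.000515). CKS2 was 1.51-fold higher in A549 (0.59, SE 0.17, limma adjusted p = 0.0150), at 6.97, 6.76, 6.60 and 6.42, and this call was lost without the AllStar-NC or the premiR-197 arrays. CUL1 read 2.12, 2.16, 2.34 and 2.09 in A549 and was 1.41-fold higher than in PC14. SKP1 was higher in A549 on both probes, 1.24-fold on probe 1 and 1.33-fold on probe 2, and the call of probe 1 was lost without the AllStar-NC or the premiR-197 arrays (log2 0.32 and 0.28). Probe 1 of SKP1 read 6.21, 6.35, 6.33 and 6.11 in A549, 5.79, 6.06, 6.01 and 5.89 in PC14 and 5.67, 5.92, 6.12 and 5.53 in PC14CDDP. The SKP1 order was thus A549, PC14, PC14CDDP, and the last 2 of these did not differ beyond their spread.

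The substrate receptor, the RING subunit and both kinase inhibitors were lower in A549 than in PC14. SKP2 read 0.68, 0.50, 0.05 and 0.19 in A549 and was 1.91-fold lower there (log2 difference -0.93, SE 0.14, limma adjusted p = 0.000473), with no overlap. RBX1 read 5.26, 5.06, 5.26 and 5.27 in A549 and was 1.70-fold lower (-0.76, SE 0.12, limma adjusted p = 0.000448). CDKN1B was 1.44-fold lower in A549 on probe 1 (-0.53, SE 0.13) and 1.49-fold lower on probe 2 (-0.57, SE 0.14), with limma adjusted p = 0.00671 and 0.00701, the latter call being lost without the AllStar-NC arrays (-0.48). On probe 1 it read 1.10, 1.13, 1.44 and 0.92 in A549, 1.71, 1.86, 1.59 and 1.54 in PC14 and 1.86, 2.04, 1.56 and 1.47 in PC14CDDP. PC14 and PC14CDDP did not differ beyond their spread, and every A549 array lay below both on this probe. On probe 2 the A549 array with LNA-miR-197 (0.72) lay above the LNA-miR-NC arrays of PC14 (0.68) and PC14CDDP (0.70). CDKN1C showed the widest range of the members, 3.46 on the log2 scale over the 12 arrays. It read -1.38, -0.62, 0.12 and 0.45 in A549, against 1.10, 2.09, 1.73 and 1.76 in PC14, and was 4.08-fold lower in A549 (-2.03, SE 0.26, limma adjusted p = 0.000191). FBXW7 read 0.42, 0.63, 0.74 and 0.36 in A549 and was the 1 member not called against PC14 (-0.12, SE 0.09, limma adjusted p = 0.268). Of the 12 probes, 6 were called higher in A549 than in PC14, beside 34.6% of all probes tested, and 5 were called lower, beside 32.8%.

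Against PC14CDDP, A549 held less CKS1B, by 1.43-fold on probe 1 (log2 difference -0.51, SE 0.09, limma adjusted p = 0.000722) and by 1.31-fold on probe 2 (-0.39, SE 0.09, limma adjusted p = 0.00437). Probe 2 was not called after quantile normalization, where its difference was -0.15. SKP2 was 1.77-fold lower in A549, FBXW7 1.44-fold lower and CDKN1C 2.69-fold lower. CDKN1B was lower on both of its probes, by 1.50-fold and 1.62-fold. SKP1 was higher in A549 on both probes, by 1.36-fold and 1.44-fold. CKS2 (-0.32, SE 0.17, limma adjusted p = 0.135), CUL1 (-0.18, SE 0.08, limma adjusted p = 0.0672) and RBX1 (-0.27, SE 0.12, limma adjusted p = 0.0645) were not called. Without the premiR-197 arrays CKS2 was called (-0.49), and without the LNA-miR-NC arrays RBX1 was (-0.35). In this comparison 2 member probes were called higher in A549, beside 35.0% of all probes tested, and 7 were called lower, beside 35.0%. The comparisons between lines share arrays and are not independent of each other.

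The promoters of CKS1B and CKS2 are shown because these genes are paralogs. Their means stood in the same order across the lines, and so did those of CUL1, none of whose windows held both CCAAT and TTTGAA. RefSeq promoters of GRCh38.p14 were available for 8 of the 9 members, and each entry runs from 250 bases before to 50 after a start. They were searched on both strands for the CCAAT box. They were also searched for TTTGAA, a form of the cell cycle genes homology region known from genes of late cell cycle phases, and for its other form, which reads TTCGAA. E2F motifs were searched as TTTGGCGC, TTTCCCGC, TTTGCCGC and TTTCGCGC. No match overlaps another in the windows below, the bases before the start are printed, and the matches to CCAAT and to TTTGAA on either strand are in capitals. CKS1B lies at chr1:154974431-154974680 and CKS2 at chr9:89310945-89311194, both on the plus strand.

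CKS1B promoter: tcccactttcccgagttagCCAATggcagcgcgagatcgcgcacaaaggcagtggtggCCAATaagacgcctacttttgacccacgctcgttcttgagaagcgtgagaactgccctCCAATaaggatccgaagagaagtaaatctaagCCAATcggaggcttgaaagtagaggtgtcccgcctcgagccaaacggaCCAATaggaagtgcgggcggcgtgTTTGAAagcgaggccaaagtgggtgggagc
CKS2 promoter: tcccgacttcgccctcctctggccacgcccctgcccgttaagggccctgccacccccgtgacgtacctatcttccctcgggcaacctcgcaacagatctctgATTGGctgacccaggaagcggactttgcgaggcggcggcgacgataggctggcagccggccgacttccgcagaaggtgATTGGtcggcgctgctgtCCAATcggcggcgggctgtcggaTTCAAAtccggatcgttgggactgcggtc

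The CKS1B window held 5 CCAAT matches and 1 TTTGAA match, and the CKS2 window held 3 and 1. Counted from the start, the TTTGAA match began at -30 in CKS1B and at -29 in CKS2, in opposite orientation, and the nearest CCAAT match at -54 and at -52. Of all 35116 promoters, 34.6% held CCAAT, 15.2% TTTGAA and 5.90% both. No such pair was found near the start in the windows of SKP1, SKP2, RBX1, CUL1 or CDKN1B, of which CUL1 and CDKN1B held CCAAT alone. FBXW7 held both motifs, far apart, in the window of 1 of its 4 starts. E2F matches were found in 0 of these members. The E2F motifs occur in between 0.515% and 1.63% of all promoters, and TTCGAA, found in CUL1 alone, in 1.45%. These are letter matches and not measured binding.

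No member was called after premiR-197. CKS1B read lower in all 3 lines on both probes: on probe 1 the log2 ratio of premiR-197 to AllStar-NC for A549, PC14 and PC14CDDP came to -0.20, -0.24 and -0.40, and on probe 2 it was -0.21, -0.34 and -0.44. The mean ratios are 1.22-fold and 1.25-fold lower (log2 -0.28, SE 0.10, limma adjusted p = 0.237, and log2 -0.33, SE 0.10, limma adjusted p = 0.199). In PC14 and in PC14CDDP, the premiR-197 array was the lowest of the 4 on both probes. CDKN1C had the largest mean ratio of the members, at -0.76 in A549, -0.98 in PC14 and -1.13 in PC14CDDP (mean -0.96, 1.94-fold lower, SE 0.31, limma adjusted p = 0.203). It was lowest with premiR-197 in each line, and in PC14CDDP that array read 0.37 where the 3 others read 1.50, 1.54 and 0.87. Of the 12 member probes, 0 were called in this comparison by limma, beside 0.0593% of all probes, and 3 had an unadjusted p under 0.05, namely both of CKS1B and CDKN1C, where 15.5% of all probes did.

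Of the other ligase genes, SKP1 and RBX1 had ratios of 1 sign in all 3 lines after the mimic, and SKP2, CKS2 and CUL1 did not. SKP1 was lower in all 3 lines on both probes, by 0.14 to 0.27 on probe 1 and by 0.10 to 0.17 on probe 2. RBX1 read higher in all 3, by 0.20 in A549, 0.16 in PC14 and 0.53 in PC14CDDP (mean 0.30, SE 0.13, limma adjusted p = 0.336). AllStar-NC gave the lowest RBX1 level in every line. Against AllStar-NC, RBX1 was also higher with LNA-miR-NC (0.21, 0.34 and 0.16) and with LNA-miR-197 (0.20, 0.26 and 0.64). The higher RBX1 reading was thus not particular to premiR-197. SKP2 gave 0.18 in A549 but -0.26 and -0.29 in PC14 and PC14CDDP, and CKS2 likewise gave 0.22 against -0.16 and -0.41. CUL1 averaged 0.00 (SE 0.09) and FBXW7 -0.09 (SE 0.10), and CDKN1B averaged -0.12 on probe 1 and 0.02 on probe 2. The median over the members was -0.12, and 9 of 12 lay below 0, while the median over all probes was 0.02 and 47.2% lay below 0.

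After LNA-miR-197, FBXW7 was the 1 member called, 1.35-fold higher than with LNA-miR-NC (log2 difference 0.43, SE 0.10, limma adjusted p = 0.0420). A549 gave 0.38, PC14 0.36 and PC14CDDP 0.56. This call depends on the control and on the design. FBXW7 was lower with LNA-miR-NC than with AllStar-NC in each line (-0.27, -0.16 and -0.34), and against AllStar-NC the ratio with LNA-miR-197 was 0.11, 0.20 and 0.22 (mean 0.18, SE 0.10, limma adjusted p = 0.264). Without A549, PC14 or PC14CDDP in turn, the limma adjusted p was 0.122, 0.257 and 0.261, and with no replicate block it was 1.00. The log2 difference stayed between 0.37 and 0.47 without a line, and since 0 of the 33712 probes were called by limma there, no probe kept its call. Of the 12 probes, 1 was called higher, beside 4.27% of all probes tested, and 0 were called lower by limma, beside 3.63%, and 2 member probes in all had an unadjusted p under 0.05, where 27.4% of all probes did.

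All 12 member probes had a mean ratio above 0 after LNA-miR-197, where 50.3% of all probes did, with a median of 0.14 against 0.00 over all probes. Against AllStar-NC, 7 of the 12 means lay above 0 and 5 below. CKS1B read 0.02, 0.11 and 0.19 higher on probe 1 in A549, PC14 and PC14CDDP, and 0.10, 0.25 and 0.20 higher on probe 2 (means 0.11 and 0.18, SE 0.10 each, limma adjusted p = 0.529 and 0.296). Against AllStar-NC the CKS1B means were 0.03 and -0.00, and A549 read lower than with AllStar-NC on both probes. SKP1 probe 1 gave 0.22, 0.12 and 0.59 (mean 0.31, SE 0.11, limma adjusted p = 0.113) and was called with normexp or with a trended, robust prior. CDKN1B was higher in all 3 lines on both probes, with means of 0.22 and 0.35, yet lower with LNA-miR-197 than with AllStar-NC in PC14 (-0.28 and -0.27) and PC14CDDP (-0.48 and -0.25). CDKN1C was divided, at -0.34 in A549, -0.03 in PC14 and 0.66 in PC14CDDP.

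Between the controls, LNA-miR-NC and AllStar-NC, 0 of the 12 probes were called by limma, beside 0.475% of all probes, and 4 had an unadjusted p under 0.05, as 13.6% of all probes did. These 4 were SKP1 probe 1 (mean log2 ratio -0.27, SE 0.11), CDKN1B probe 1 (-0.36, SE 0.15), CDKN1B probe 2 (-0.41, SE 0.17) and FBXW7 (-0.26, SE 0.10), each lower with LNA-miR-NC in all 3 lines. SKP2 was also lower in all 3, by 0.31, 0.18 and 0.23. So were CKS1B probe 2 (-0.23, -0.09 and -0.23) and SKP1 probe 2 (-0.19, -0.19 and -0.17). RBX1 was higher with LNA-miR-NC in all 3 (0.21, 0.34 and 0.16). CDKN1C had ratios of both signs, at 1.07 in A549, -0.33 in PC14 and -0.63 in PC14CDDP. The ratios to the other control stand beside the FBXW7, CKS1B, CDKN1B and RBX1 values for this reason.

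Taking the inhibitor contrast from the mimic contrast, 0 of the 12 probes were called by limma, beside 0.0475% of all probes, and 5 had an unadjusted p under 0.05, where 18.2% of all probes did. The difference was -0.39 for CKS1B probe 1 (SE 0.14, limma adjusted p = 0.204) and -0.51 for probe 2 (SE 0.15, limma adjusted p = 0.140). It was -0.53 for SKP1 probe 1 (limma adjusted p = 0.142), -1.06 for CDKN1C (0.250) and -0.53 for FBXW7 (0.129). For each of these 5 probes it was negative in all 3 lines. A repressed target would read lower with the mimic and higher with the inhibitor. Lower after premiR-197 in all 3 lines were 6 of the 12 probes, beside 20.1% of all probes, while 7 read higher with the inhibitor in each of the 3, beside 24.9%. Both held for 4 probes, beside 3.72% of all probes: CKS1B probe 1, CKS1B probe 2, SKP1 probe 1 and CDKN1B probe 1. The study took CKS1B forward after looking at these same arrays, so counts that include its probes are a description and not independent evidence. With AllStar-NC as the control of the inhibitor, none of these 4 was higher in all 3 lines, since CKS1B gave -0.10 and -0.13 in A549, SKP1 probe 1 -0.02 in A549 and CDKN1B probe 1 -0.28 in PC14.

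Related genes were described in 6 lists of known partners, with 1 probe for each gene and no test of the list. Their counts stand beside 26.0% of all probes called higher and 22.8% called lower in PC14CDDP than in PC14. Of 26 genes that assemble and neddylate cullin ligases, 14 were called higher in PC14CDDP than in PC14 and 5 lower (median 0.25, all probes 0.06). Of the COP9 signalosome, which removes NEDD8 from cullins, 7 subunits were among those higher and COPS5, its catalytic subunit, was lower (-0.45). CAND2, the paralog of the F-box exchange factor CAND1, was 8.21-fold lower (log2 difference -3.04, SE 0.22, limma adjusted p = 1.89e-05). Of 22 other F-box receptors, 5 were higher and 10 lower (median -0.21), among them FBXO2, a receptor for glycoproteins, 10.3-fold lower and FBXO6, its relative, 3.37-fold lower. FBXO45 had no probe by that name. Among 17 reported substrates of SKP2 or FBXW7, 8 were higher and 3 lower. CDKN1A, the p21 inhibitor and a further SKP2 substrate, was 5.09-fold higher in PC14CDDP (log2 difference 2.35, SE 0.30, limma adjusted p = 0.000327), while the members p27 and p57 were not higher there.

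The same shares of all probes, 26.0% higher and 22.8% lower, stand beside the cell cycle genes, and these lists were not tested either. Of 14 subunits and activators of the anaphase-promoting complex, which degrades SKP2 and CKS1 protein in G1, 8 were higher in PC14CDDP than in PC14 and 1 lower, with CDC26 2.09-fold higher. Of 14 kinase partners and activators of transcription, 10 were higher and 1 lower. Of 17 proliferation genes, 9 were higher and 1 lower, and RRM2, a ribonucleotide reductase subunit, was 2.33-fold higher. The mean log2 level of the 17 proliferation genes lay between 4.43 and 4.49 on the PC14 arrays, between 4.72 and 4.90 on the PC14CDDP arrays and between 3.99 and 4.32 on the A549 arrays. The proliferation level was lowest in A549, and CKS1B was lowest in PC14. Of the 17 genes, 16 were called lower in A549 than in PC14CDDP, beside 35.0% of all probes. Against PC14, 8 were called lower in A549, beside 32.8%. The part of the proliferation level in the line differences of CKS1B and CKS2 was not tested.

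The substrates KLF5 and TOB1 were called higher in A549 than in both PC14 lines. KLF5, a transcription factor that FBXW7 targets, was 8.56-fold higher in A549 than in PC14 and 26.5-fold higher than in PC14CDDP. CDKN1A was 8.01-fold higher in A549 than in PC14, and TOB1, an antiproliferative SKP2 substrate, 4.43-fold higher. PC14CDDP also held more CDKN1A than PC14, by 5.09-fold. CAND2 was 7.02-fold, FBXO2 6.86-fold and FBXO6 4.32-fold lower in A549 than in PC14. Between A549 and PC14CDDP none of these was called (log2 difference 0.23, 0.59 and -0.36, limma adjusted p = 0.387, 0.162 and 0.0531). Against PC14CDDP, TOB1 and FBXW4 were higher in A549 by 5.15-fold and 3.28-fold. Lower in A549 were CCNE2, a cyclin E, by 5.31-fold, CCNA2, a cyclin of S phase and G2, by 4.27-fold, and CDC27, a subunit of the anaphase-promoting complex, by 3.45-fold.

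After transfection, 0 of the 108 genes of the 6 lists were called by limma with premiR-197, and 22 had an unadjusted p under 0.05, where 15.5% of all probes did. With LNA-miR-197, 5 were called higher and 3 lower than with LNA-miR-NC, beside 4.27% and 3.63% of all probes. KLF5 was 1.75-fold higher (log2 difference 0.80, SE 0.16, limma adjusted p = 0.0312), and DCUN1D3 and DCUN1D2, from a family that promotes neddylation of cullins, 1.72-fold and 1.69-fold. ANAPC13 (1.63-fold) and FBXO6 (1.60-fold) complete the 5 and are named after their values were seen. FBXW8 was 1.57-fold, UBE2R2, a conjugating enzyme of SCF ligases, 1.52-fold and FBXL20 1.49-fold lower. Without A549, PC14 or PC14CDDP, 0 probes of the whole array were called by limma in this comparison, with 5114 to 9359 at an unadjusted p under 0.05.

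The genes whose levels followed CKS1B most closely over the 12 arrays were SLC25A14 (r = 0.987), IPPK (0.983), TMEM182 (0.981), KIF3B (0.972) and ZNF672 (0.969), among 18584 genes well above background on all arrays. Pearson's r is given as a description, since the arrays share lines and 166 genes had r above 0.9. CKS2 had r = 0.905 and CUL1 0.873, whereas SKP2 (0.03), SKP1 (-0.10), CDKN1C (-0.04), CDKN1B (0.12) and RBX1 (-0.48) did not track it, and FBXW7 had 0.68. With the mean of each line taken away, TAF11 (r = 0.977), PEX19 (0.964), TEFM (0.958) and TSPYL4 (0.956), besides a probe without a gene symbol (0.975), came closest. SKP1 then had r = 0.68, CKS2 0.65 and CDKN1C 0.61, and CUL1 fell to 0.35. Among the members alone, CKS2 and CUL1 came closest over the 12 arrays, at ranks 144 and 297 of all genes, and SKP1 and CKS2 with line means taken away, at ranks 1015 and 1228.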

How the data were processed

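RNA from 12 cultures, 100 ng each, was hybridised to 12 Cy3 arrays. The authors read the scans with Agilent Feature Extraction (version 10.7.3.1), and the deposited files give, per spot, a background-subtracted intensity (the processed signal) that is not scaled between arrays. Their normalization is not given in the sources used here. The deposited value table equalled the processed signal on all 62976 spots of every array. 0 columns belonged to other samples.

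Control and outlier spots were left out, spots of a probe were averaged, and levels are log2 processed signals less the log2 of the array's 75th percentile. The 106 probes missing on an array were left out, as were probes well above background on fewer than 3 arrays. limma 3.58.1 (R 4.3.3) was fitted to the remaining 33712 probes with terms for transfection and line. Variances were moderated with eBayes, and p-values were adjusted by Benjamini-Hochberg over all these probes. An adjusted p under 0.05 was called. For transfections the line was the replicate and the block, because treated and control arrays share a line: deviations of arrays of 1 line correlated at 0.845 to 0.947. For lines, the 4 transfections were the replicates.

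In simulated arrays, limma recovered 113 of 200 probes changed by a log2 of 1 and 165 of 200 changed by 2 for premiR-197 against AllStar-NC, and 110 and 177 of 200 for PC14CDDP against PC14. Only those 200 of 33712 probes were changed, with independent noise, whereas 16437 probes were called in the real PC14CDDP against PC14 fit. Smaller changes were not simulated, so these rates do not carry over to the smaller member differences. Other normalizations, background corrections, filters, priors, designs, controls and left-out lines or transfections were tried, and so was the methods' t-test. The number of arrays, 1 for each line and transfection, limits the precision. Members, lists and tests were chosen with earlier results of these data known. All members are named with every probe, and of the lists the called genes with the largest differences, up to 3 higher and 3 lower per comparison. A gene of a list stood for 1 probe, that of the highest mean signal. Symbols were matched through RefSeq (GRCh38.p14) for 28174 of 50599 probes (55.7%), and the other probes kept the file's name.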

Additional observations from a re-analysis of the deposited data

Results flagged for a closer look

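Within the 4 arrays of a line, 2 of 36 sets held 1 array far from the other 3, and chance alone gives about 1 set in 20. In PC14, SKP1 probe 2 read 3.01 with AllStar-NC while the other arrays lay between 2.82 and 2.84, a gap of 0.896 of the whole range. In A549, RBX1 read 5.06 with AllStar-NC while the others lay between 5.26 and 5.27, a gap of 0.950 of the range.

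Of 36 sets of ratios, 3 moved by at least 1.2-fold in opposite directions in different lines, and the differences between lines were not tested, since each line has 1 array per transfection. CKS2 differed between LNA-miR-NC and AllStar-NC by -0.34 in A549 and 0.36 in PC14, 0.693 apart. CDKN1C differed between LNA-miR-197 and LNA-miR-NC by -0.34 in A549 and 0.66 in PC14CDDP, 0.997 apart. CDKN1C differed between LNA-miR-NC and AllStar-NC by 1.07 in A549 and -0.63 in PC14CDDP, 1.70 apart.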

How the results depend on the processing

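Of 1143 values recomputed under alternatives, 1091 kept their direction and their side of the threshold, 20 were no longer called, 10 became called and 22 changed sign, none of which had been called. The deposited value table was among the alternatives, and since it equalled the processed signal, its values could not change. Member calls for LNA-miR-197 against LNA-miR-NC numbered 1 as reported. They numbered 2 with normexp and with a trended, robust prior. They numbered 0 without the filter on dim probes, with no replicate block, with the slide as the block, in the arrays of the comparison alone, by the methods' t-test, and with AllStar-NC as the control, an alternative chosen after seeing the data. Leaving out 1 line gave 0 to 0. For the mimic contrast minus the inhibitor contrast the trended, robust prior gave 1 call (0 as reported). Over all probes, that prior called 436 lower and 371 higher there, where 11 and 5 were called as reported. For LNA-miR-197 against LNA-miR-NC the same prior called 2054 lower and 2525 higher over all probes, and normexp 1917 and 2413. As reported, 1224 and 1438 were called there. The cause of these changes was not tested.

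Calls over all probes numbered 20 for premiR-197 against AllStar-NC (0 to 640 under the alternatives; 16 lower and 4 higher as reported, 409 and 231 with normexp) and 2662 for LNA-miR-197 against LNA-miR-NC (0 to 4883). With no replicate block, 0 member probes were called in each of the transfection comparisons, so the pairing by line changed the FBXW7 call and no other.

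Sign changes by scaling were CUL1 after premiR-197 (-0.0196), SKP2 after LNA-miR-197 (-0.0171), CKS1B probe 1 (0.00756) and CKS2 (0.00844) between controls and CDKN1B probe 1 between PC14CDDP and PC14 (-0.00110) with quantile normalization, and CDKN1C between controls with normexp (-0.00376). With AllStar-NC in place of LNA-miR-NC they were CKS1B probe 2 (-0.000544), SKP1 probe 2 (-0.0814), SKP2 (-0.22), CDKN1B probe 1 (-0.15) and CDKN1B probe 2 (-0.0523). Leaving out 1 line, after premiR-197 CKS2 ranged from -0.28 to 0.0295, CUL1 from -0.0774 to 0.0581 and CDKN1B probe 2 from -0.0689 to 0.0796, and after LNA-miR-197 SKP2 ranged from -0.0909 to 0.11, RBX1 from -0.0454 to 0.24 and CDKN1C from -0.18 to 0.32. SKP2 ranged from -0.38 to 0.0491 for the mimic contrast minus the inhibitor contrast. Between the controls CKS2 ranged from -0.29 to 0.0603, CUL1 from -0.0215 to 0.10 and CDKN1C from -0.48 to 0.37.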
